A study of Mus musculus with 18 samples.

Results

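Immediate early genes were followed across knockout and wild-type mice of 3 ages through all probe sets whose platform gene symbol was Fos, Fosb, Junb, Egr1, Egr2, Arc, Npas4, Nr4a1, Dusp1 or Btg2. A probe set is a group of short oligonucleotides on an Affymetrix array that read 1 transcript. The rule found 12 probe sets for all 10 genes, out of 45101 probe sets on the array. Egr2 and Btg2 had 2 each and the other genes 1. All 12 were bright enough to be tested, and each gene was represented by its brightest probe set. The genes were chosen by name and not by their values, but with earlier results of these data known.

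The mice either lacked Ppt1, which encodes the depalmitoylating enzyme of the lysosome, or were wild type, and were 3, 5 or 8 months old. Total RNA of 3 samples was hybridised for each genotype at each age. Males were replicate 1 everywhere and also replicate 3 of the 8-month knockout, and all other samples were female. The labels state no strain, allele or handling before sampling. Each group holds both sexes, so more than 1 animal, but whether samples of the same sex were different animals is not stated. The p-values therefore speak only of variation among these arrays, which may in part be technical.

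Immediate early genes are switched on within minutes of a stimulus, without new protein synthesis, when calcium and kinase signals reach factors such as CREB and SRF that already sit at their promoters. In the brain they are widely used as markers of recent neuronal firing, and several of them also answer to growth factors, stress and inflammation in glia and vessels. Their transcripts are short-lived, so a level in tissue reflects the time shortly before sampling. In RNA of a mixed tissue, fewer cells of a type and less RNA per cell cannot be told apart.

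The source label joined brain and cochlea. General brain markers were bright, with Snap25, a synaptic fusion protein, at a mean signal of 8610, and all 8 of them were tested. Of 20 cochlear markers on the array 7 were bright enough to test, and Kcne1, Oc90 and Gfi1 lay at or below background on all 18 arrays. Background was set on each array at the level that 95% of its 27 bacterial control probe sets stayed under, a signal of 9.24 to 19.2. Array medians lay between 43.2 and 46.1. Ppt1 itself read at most 23.4 on the knockout arrays and at least 543 on the wild-type arrays, so every array matched its genotype label.

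Sites for CREB are the best known switch in the promoters of these genes, so the 250 bases before the transcription start were read. Of 8 members read, 5 are printed, picked after their values were seen. Junb, which passed at 5 months, was read but is not printed. The sequences come from a set of RefSeq promoters (GRCm38.p6) that has an entry for 8 of the 10 members, all but Arc and Egr1. They run 5′ to 3′ along the gene. Capitals mark TGACG, the core of the cyclic AMP response element, on either strand (CGTCA when it lies on the other one).
Fos (chr12:85473640-85473889, plus strand): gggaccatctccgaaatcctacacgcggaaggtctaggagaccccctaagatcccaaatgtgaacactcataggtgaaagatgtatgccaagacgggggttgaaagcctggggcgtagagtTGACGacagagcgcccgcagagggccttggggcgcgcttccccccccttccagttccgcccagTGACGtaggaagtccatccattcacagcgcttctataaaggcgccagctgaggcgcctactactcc
Dusp1 (chr17:26508473-26508722, minus strand): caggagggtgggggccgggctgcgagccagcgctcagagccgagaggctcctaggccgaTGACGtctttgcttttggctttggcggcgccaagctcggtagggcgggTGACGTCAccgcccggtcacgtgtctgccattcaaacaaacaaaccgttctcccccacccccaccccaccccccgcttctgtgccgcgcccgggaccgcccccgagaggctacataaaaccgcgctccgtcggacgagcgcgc
Btg2 (chr1:134079156-134079405, minus strand): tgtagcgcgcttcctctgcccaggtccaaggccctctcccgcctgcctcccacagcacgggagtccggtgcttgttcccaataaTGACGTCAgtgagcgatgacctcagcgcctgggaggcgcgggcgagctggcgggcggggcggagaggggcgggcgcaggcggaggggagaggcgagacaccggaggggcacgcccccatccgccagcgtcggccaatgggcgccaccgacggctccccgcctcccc
Nr4a1 (chr15:101266596-101266845, plus strand): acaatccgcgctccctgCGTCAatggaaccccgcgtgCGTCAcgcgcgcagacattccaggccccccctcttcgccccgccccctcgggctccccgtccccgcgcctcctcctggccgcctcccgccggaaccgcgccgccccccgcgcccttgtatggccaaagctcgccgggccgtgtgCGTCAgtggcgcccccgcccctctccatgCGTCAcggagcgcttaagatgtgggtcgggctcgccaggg
Npas4 (chr19:4989972-4990221, minus strand): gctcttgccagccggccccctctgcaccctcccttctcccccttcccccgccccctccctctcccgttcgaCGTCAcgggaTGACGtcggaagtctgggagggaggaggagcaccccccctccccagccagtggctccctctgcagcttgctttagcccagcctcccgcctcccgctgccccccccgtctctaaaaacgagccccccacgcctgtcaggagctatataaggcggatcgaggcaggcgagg
The core was present in 8 of 8 members with an entry, against 19.8% of all 27025 genes of the table (Egr2 has 5 start sites, and 3 of their windows held it). The complete palindrome TGACGTCA, which contains the core on both strands, was found in Dusp1 and Btg2 and in 1.77% of all genes. In Dusp1 it began 143 bases and in Btg2 166 bases before the start. In Nr4a1 the core appeared 4 times, each on the opposite strand. The CArG box, the site of SRF, was found in this window in Egr2 alone of the 8 members read and in 1.62% of all genes. Bases farther upstream, and Arc and Egr1, were not read, so a site there would be missed. These are matches of letters and say nothing about which factor was bound.

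Several immediate early genes rose in the knockout at 3 and 5 months. Fos, the AP-1 subunit most used as a marker of activity, rose at every age. Dusp1, a phosphatase that switches MAP kinases off, rose at 3 and 5 months, Btg2, an antiproliferative cofactor of mRNA decay, at 3 months, and Junb, a Jun partner in AP-1, at 5 months. As the mean over ages, 6 of the 10 genes passed as higher (Fos, Dusp1, Junb, Nr4a1, Arc and Btg2) and none as lower, where 8.39% of the 12496 genes tested passed as higher and 6.43% as lower. No member had all 9 knockout arrays above all 9 wild-type arrays, which 1.54% of genes did, or all below, which 0.544% did. The median log2 change of the members was 0.63 against -0.01 for all genes. At 8 months the 3 knockout arrays were unlike each other, as described further down.

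**Figure D1:**
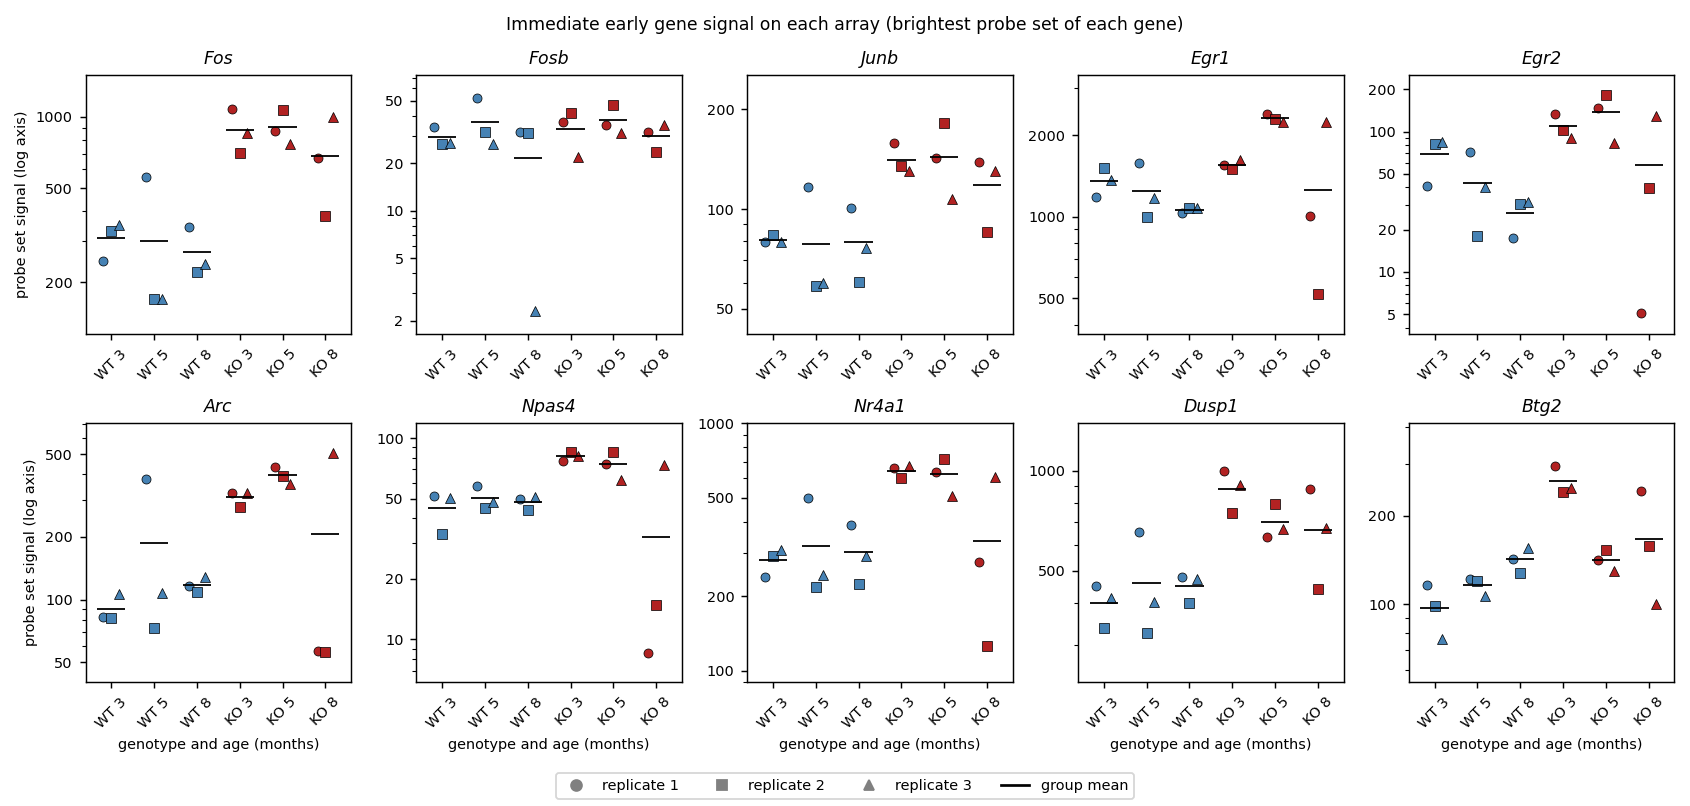
Signal of the brightest probe set of each gene on each of the 18 arrays, on a log axis, by genotype (wild type, WT, blue; knockout, KO, red) and age in months. Symbols mark the replicate and bars the group mean. At 3 and 5 months Fos and Nr4a1 lie above the wild type of the same age on every knockout array. At 8 months knockout replicate 3 lies far above replicates 1 and 2 in Arc, Npas4, Egr1 and Egr2.

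Members of AP-1, the Fos and Jun dimer that binds DNA, are taken in turn. Fos read 1080, 707 and 853 on the 3-month knockout arrays and 246, 329 and 348 on the wild-type arrays. At 5 months it read 874, 1070 and 771 against 557, 169 and 169, and at 8 months 668, 382 and 1000 against 341, 221 and 239. The knockout lay above the wild type without overlap at each age, and 8 of 9 knockout arrays lay above the highest wild-type array of any age. The change on the scale of log2(signal + 16) was 1.46 ± 0.27 (standard error, SE) at 3 months, 1.76 ± 0.27 at 5 months and 1.05 ± 0.28 at 8 months (adjusted p 0.0057, 0.000391 and 0.0162), or 2.75-fold, 3.39-fold and 2.07-fold. The 3-month call was lost without wild-type replicate 1 of that age (1.07, adjusted p 0.0666), and the 8-month call without wild-type replicate 1 (adjusted p 0.0665) or 2 (adjusted p 0.0516). By group mean, the order was knockout at 5 months (906 ± 154, SD, n = 3), at 3 months (879 ± 187) and at 8 months (683 ± 309), then wild type at 3 months (308 ± 53.9), 5 months (298 ± 224) and 8 months (267 ± 65). Within each genotype the 3 ages overlapped.

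Junb read 158, 135 and 130 in the 3-month knockout against 79.3, 83.5 and 79.4 in the wild type. These groups did not overlap, but the change of 0.70 ± 0.18 did not pass (adjusted p 0.0836). At 5 months Junb read 143, 182 and 107 against 117, 58.8 and 59.9 and rose by 0.79 ± 0.18 (1.72-fold, adjusted p 0.0215). It did not pass without knockout replicate 2 of this age (0.55, adjusted p 0.17) or without wild-type replicate 2 or 3 (adjusted p 0.125 and 0.0927). At 8 months the values were 139, 85.2 and 130 against 101, 60.4 and 76.5, a difference of 0.37 ± 0.19 (adjusted p 0.22). Fosb, whose truncated product builds up with repeated activity, was dim, at a mean signal of 31.4. It ranged from 21.9 to 46.7 in the knockout and from 2.31 to 52.4 in the wild type, with differences of 0.11, 0.04 and 0.30 at 3, 5 and 8 months (SE 0.28 to 0.29), none of which passed. Fosb was the member with no separation of the genotypes at any age.

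Egr1 and Egr2 encode zinc finger factors of the EGR family, Egr1 being induced by synaptic plasticity and Egr2 also being the factor of Schwann cell myelination. At 3 months Egr1 read 1550, 1500 and 1630 in the knockout and 1180, 1510 and 1370 in the wild type, with overlap. At 5 months it read 2400, 2310 and 2240 against 1580, 997 and 1170, so the lowest knockout array stood well above the highest wild-type array. The difference there was 0.91 ± 0.26 and did not pass (adjusted p 0.0817). The fit takes 1 spread per gene from all 6 groups, and the 8-month knockout values of Egr1 ran from 517 to 2240. Without knockout replicates 1 and 2 of 8 months the value stayed at 0.91 with an SE of 0.11. Those 2 arrays were picked after the values of the members were seen. The smaller SE follows from that choice and lends no support to the change. Egr2 read 147, 182 and 83 against 71.2, 18 and 39.9 at 5 months, a difference of 1.42 ± 0.46 (adjusted p 0.13). At 3 months it read 134, 103 and 90.1 against 40.8, 81.6 and 84, a difference of 0.59 ± 0.46 (adjusted p 0.759). The other Egr2 probe set, at or below background on 5 of 9 wild-type arrays, differed by 0.75 ± 0.50 and 1.17 ± 0.50 at 3 and 5 months and did not pass either.

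Arc, Npas4 and Nr4a1 are the members most tied to neurons or to strong calcium signals. Arc encodes a synaptic protein that removes AMPA receptors, Npas4 a factor induced by calcium that controls inhibitory synapses, and Nr4a1 an orphan nuclear receptor. Arc read 327, 279 and 327 in the 3-month knockout and 82.9, 82 and 106 in the wild type. At 5 months it read 433, 392 and 360 against 381, 73.2 and 108. The 3-month groups lay far apart, while at 5 months 1 wild-type array reached the knockout. The differences were 1.63 ± 0.47 (3.09-fold, adjusted p 0.13) and 1.32 ± 0.47 (2.5-fold, adjusted p 0.183). Without the 8-month knockout replicates 1 and 2 the same differences had an SE of 0.28. Those arrays were picked after the Arc values were seen, so the smaller SE lends no support. Over all ages Arc rose by 0.94 ± 0.27 (1.92-fold, adjusted p 0.0261). That call was lost without knockout replicate 3 of 3 months or 2 of 5 months, or without wild-type replicate 1 of 3 months, 2 of 5 months or 1 of 8 months (adjusted p up to 0.077).

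Nr4a1 read 657, 599 and 669 against 239, 291 and 308 at 3 months and 638, 719 and 510 against 498, 217 and 243 at 5 months. Neither age showed overlap. The differences were 1.16 ± 0.29 (2.23-fold, adjusted p 0.0603) and 1.01 ± 0.29 (2.02-fold, adjusted p 0.0783), short of the threshold. Over all ages Nr4a1 rose by 0.64 ± 0.17 (adjusted p 0.0137, or 0.0508 without wild-type replicate 1 of 3 months). Npas4 was dim and read 77.1, 85 and 81.9 against 51.6, 33.5 and 50.4 at 3 months, and 74.5, 85.3 and 62.1 against 57.6, 44.9 and 48.3 at 5 months. Its groups did not overlap at either age, but the differences of 0.68 ± 0.30 and 0.44 ± 0.30 did not pass (adjusted p 0.44 and 0.573).

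Dusp1 and Btg2 act as brakes that are induced together with the factors above. Dusp1 read 998, 746 and 906 in the 3-month knockout and 449, 337 and 413 in the wild type, a rise of 1.11 ± 0.17 (2.16-fold, adjusted p 0.000712). At 5 months it read 634, 794 and 669 against 656, 324 and 402, where 1 wild-type array overlapped the knockout. The rise of 0.64 ± 0.17 passed narrowly (adjusted p 0.0493). It was lost when any one of 13 of the 18 arrays was left out, which was every 3-month array, every wild-type 8-month array, and replicates 2 and 3 of both 5-month groups (largest adjusted p 0.279), and under 7 of 13 other settings. At 8 months the difference was 0.38 ± 0.17 (adjusted p 0.161), with 882, 442 and 673 against 479, 399 and 473.

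Btg2 passed at 3 months and at no later age. It read 296, 241 and 249 in the 3-month knockout against 116, 98.9 and 76.2 in the wild type, and rose by 1.31 ± 0.19 (2.48-fold, adjusted p 0.000528). At 5 months it read 141, 153 and 130 against 122, 120 and 107, and at 8 months 243, 158 and 100 against 143, 128 and 155. The differences at these ages were 0.25 ± 0.19 and 0.10 ± 0.20 and did not pass. The knockout effect at 8 months was lower than that at 3 months by a tested difference of -1.21 ± 0.28 (adjusted p 0.0358). It was lost without any one of the 3-month knockout arrays, 8-month knockout replicate 2, 3-month wild-type replicates 2 and 3 or the 8-month wild-type arrays (largest adjusted p 0.114). Of all genes 0.208% passed as lower and 0.968% as higher in this test. The second Btg2 probe set did not pass at any age and changed by 0.54 ± 0.20 at 3 months (adjusted p 0.295). Over all ages it changed by 0.30 ± 0.11 and did not pass either (limma, adjusted p 0.0894). The Btg2 calls therefore rest on 1 probe set. Of the promoters printed above, those of Btg2 and Dusp1 hold the complete palindrome, and that of Fos, which was also called at 3 months, does not. A link between this sequence and the calls was not tested.

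**Figure D2:**
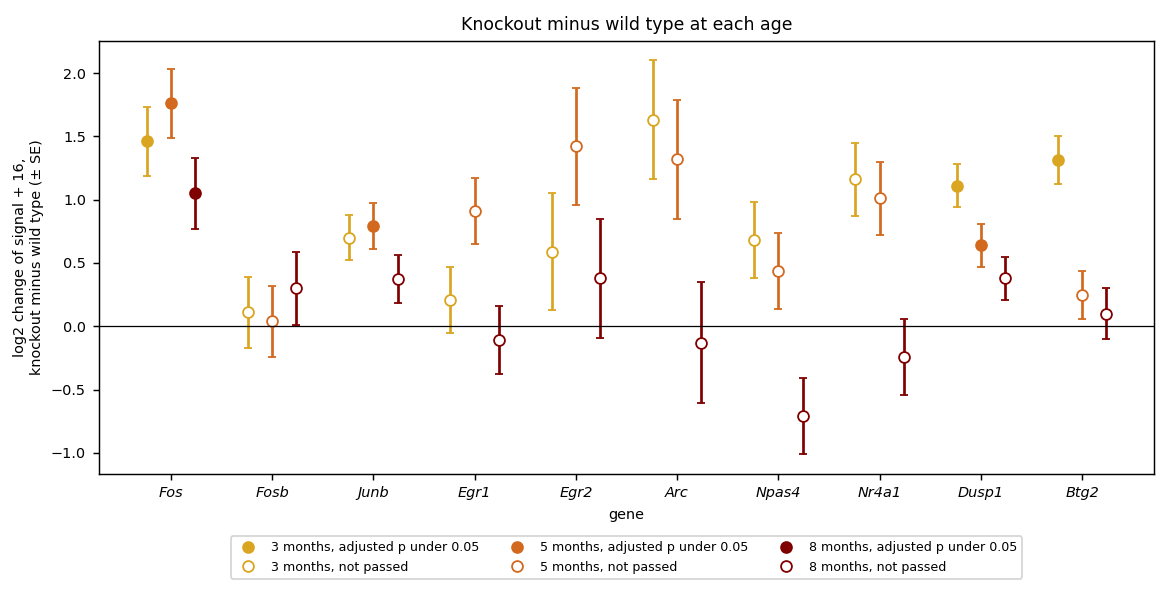
Knockout minus wild type for each gene on the scale of log2(signal + 16) at 3, 5 and 8 months, with the SE of the fit as bars (n = 3 arrays a group). Filled points passed an adjusted p of 0.05. Fos is filled at all 3 ages, and Arc, Egr1, Npas4 and Nr4a1 lie below 0 at 8 months.

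Counted at single ages, 3 members passed as higher at 3 months (Fos, Dusp1 and Btg2), where 0.912% of all genes did. At 5 months 3 passed (Fos, Dusp1 and Junb) against 2.31%, and at 8 months Fos alone against 6.97%. No member passed as lower at any of these ages, where 0.336%, 0.656% and 5.95% of genes did. The count without overlap, every knockout array above every wild-type array of its age, included 8 members at 3 months (all but Egr1 and Fosb), 6 at 5 months (Fos, Nr4a1, Npas4, Egr1, Egr2 and Btg2) and Fos at 8 months. Among all genes it was 10.6%, 12.7% and 12.8%. No member had every knockout array below the wild type of its age, which held for 10.2%, 9.76% and 14.4% of genes. The median log2 change of the members was 0.90, 0.85 and 0.20 at 3, 5 and 8 months, and that of all genes was between -0.02 and 0.01. The counts without overlap use separate arrays at each age. The tests and log2 changes do not, since all arrays enter a shared fit with a shared spread and sex term. The calls at single ages are therefore not independent of each other. The mean over ages also rests on all arrays.

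The counts moved with a few arrays. At 3 months 5 members passed without 8-month knockout replicate 1 or replicate 3, where 1.2% and 1.5% of genes were higher. At 5 months 5 passed without 8-month knockout replicate 2 (2.49% of genes) and 7 without replicate 3 (3.35%). There 1 passed without 5-month knockout replicate 2 (1.54%) or wild-type replicate 2 (1.46%) or 3 (1.89%). A further fit left out both knockout replicates 1 and 2 of 8 months, which were picked after the values of the members were seen. The log2 changes at 3 and 5 months were the same numbers as in the main fit. The SE was smaller for Arc, Egr1, Egr2, Npas4, Nr4a1, Btg2, Dusp1 and Fos and not for Junb or Fosb. Calls of members in that fit are not given, since the smaller spread followed from the choice of arrays. Over all ages Arc changed by 1.55 there in place of 0.94 ± 0.27, with the 8-month knockout given by 1 array.

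**Figure D3:**
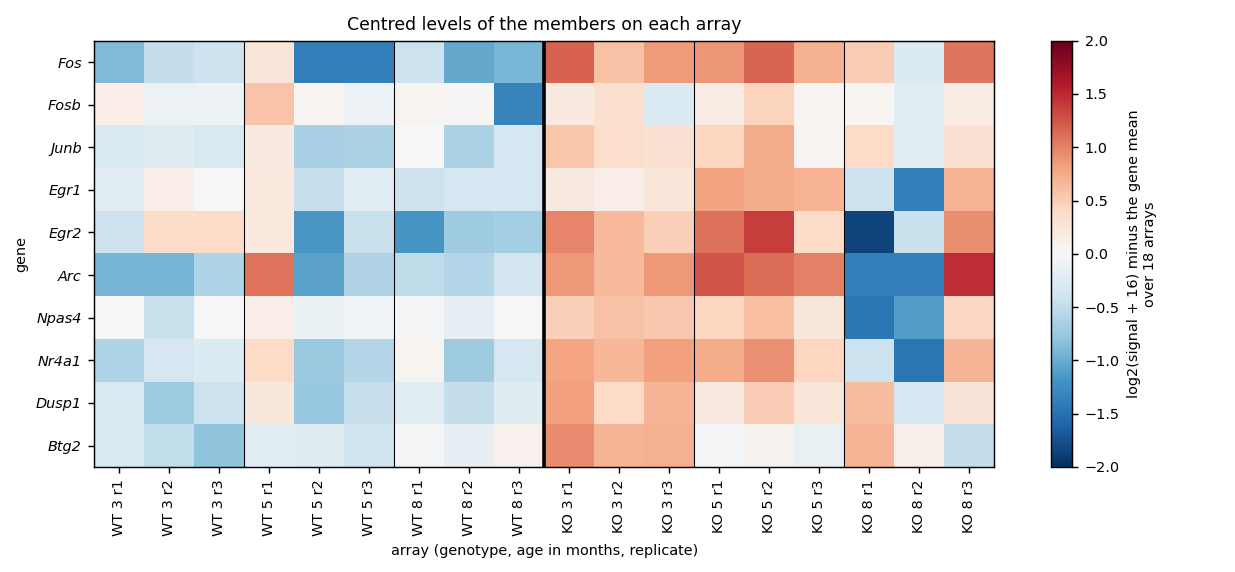
log2(signal + 16) of each gene on each array minus its mean over the 18 arrays (red above, blue below, range -2 to 2), with arrays in columns by genotype, age and replicate (r). Knockout arrays of 3 and 5 months are mostly red and wild-type arrays mostly blue. Wild-type 5-month replicate 1 and knockout 8-month replicates 1 and 2 break the pattern.

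The 8-month knockout divided the genes. On replicate 3, 9 of 10 members lay above every wild-type array of that age, with Btg2 below. On replicate 1, Fos, Junb, Dusp1 and Btg2 lay above and Arc, Npas4, Egr1 and Egr2 below. On replicate 2, Fos, Btg2 and Egr2 lay above and Arc, Npas4, Egr1 and Nr4a1 below. The share of all genes so placed on each array is not given here, so these counts cannot be read as a result about the members. Arc, Npas4 and Egr1 were below the wild type on both replicates 1 and 2, while Fos and Btg2 were above it. Replicates 1 and 3 were the males of this group.

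The values show how far apart these arrays were. Arc read 56.6 and 56.4 on replicates 1 and 2 and 506 on replicate 3, against 116, 109 and 129 in the 8-month wild type. The same arrays gave 8.6, 14.8 and 73.8 for Npas4 against 50, 43.7 and 51.2, with replicate 1 at or below background. Egr1 read 1010, 517 and 2240 against 1030, 1080 and 1080. Replicates 1 and 2 held the lowest Arc and Npas4 signals of all 18 arrays, and replicate 3 the highest Arc signal. Nr4a1 read 274, 126 and 605 against 389, 223 and 290, and Egr2 read 5.05 (at background), 39.6 and 129 against 17.5, 30.5 and 31.4. With all 3 arrays the differences at 8 months were -0.13 ± 0.48 for Arc, -0.71 ± 0.30 for Npas4, -0.11 ± 0.27 for Egr1, -0.24 ± 0.30 for Nr4a1 and 0.38 ± 0.47 for Egr2, and none passed.

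The sign of 6 members at 8 months turned with the arrays that entered (Arc, Egr1, Egr2, Npas4, Nr4a1 and Btg2). The arrays were split after the values of these members were seen. The opposite signs therefore follow from the split and lend no support to a change. Without replicate 3, 4 members passed as lower and Fos alone as higher: Npas4 fell by 1.23, Arc by 0.94, Nr4a1 by 0.68 and Egr1 by 0.57, while Fos rose by 0.83 (adjusted p 0.000176, 0.0387, 0.0444, 0.019 and 0.0406). Npas4 was above background on 1 of these 2 knockout arrays, so the size of its fall is not well measured. In that fit 10.3% of genes passed as higher and 11.2% as lower. Without replicates 1 and 2, the changes were 1.58 for Fos, 1.69 for Arc, 1.02 for Egr1 and 1.75 for Egr2. They rest on 1 array in the group. Fos, Fosb, Junb and Dusp1 had the same sign in all 3 versions. Btg2 turned from 0.39 without replicate 3, which did not pass, to -0.54 without replicates 1 and 2.

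**Figure D4:**
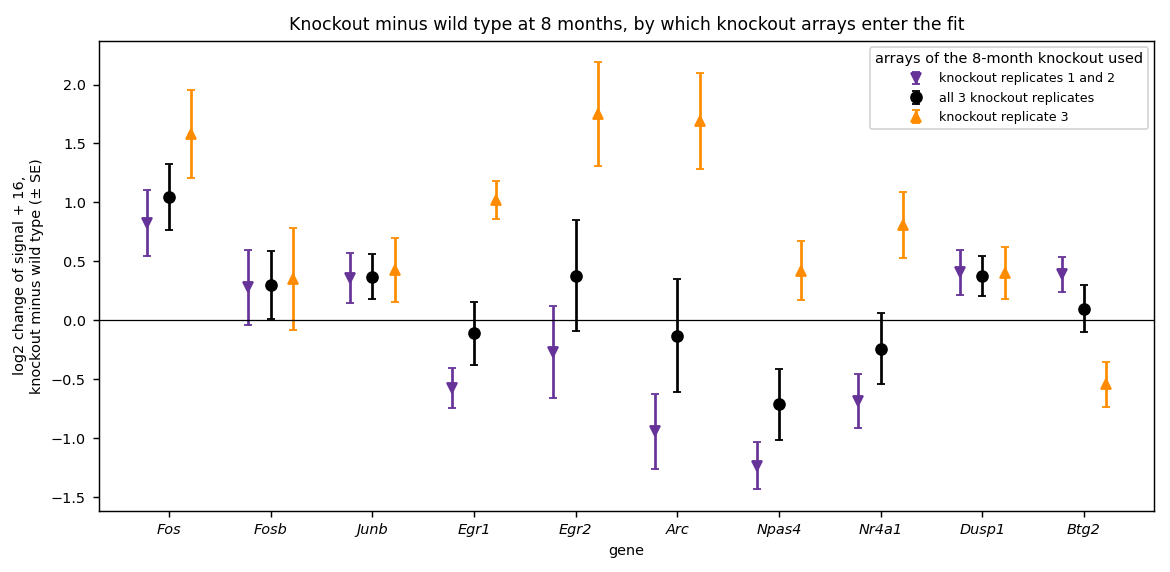
Knockout minus wild type at 8 months on the scale of log2(signal + 16), with SE, when the 8-month knockout enters as replicates 1 and 2 (purple), all 3 replicates (black) or replicate 3 alone (orange). Arc, Egr1, Egr2, Npas4 and Nr4a1 go from below 0 in purple to above 0 in orange and Btg2 the other way, and Fos, Fosb, Junb and Dusp1 do not. The arrays were split after these values were seen, and orange rests on 1 array.

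Other measures also differed among these 3 arrays. Summed signal over 16 glucocorticoid-induced genes was 40900 and 24700 on replicates 1 and 2 and 18800 on replicate 3, against 11600 to 12300 in the 8-month wild type. Over 17 microglia and macrophage markers it was 13700, 15800 and 8910 against 5270 to 5580, and over 12 astrocyte markers 44100, 44200 and 37000 against 26800 to 28300. Cerebellar markers (10 genes) summed to 11100, 11400 and 15400 against 15500 to 16600. At 8 months 4 of them passed as lower, where 5.95% of all genes did, and without replicate 3 the count was 6, where 11.2% did. The sum over 15 circadian clock genes was 5540, 5630 and 7090 against 7280 to 7490. In these lists replicates 1 and 2 lay farther from the wild type than replicate 3. The 15 excitatory neuron markers summed to 8430, 7680 and 9030 against 10500 to 11300, but their mean log2 signal was 8.63, 8.49 and 8.61, so replicate 1 was like replicate 3 there. The ratio of 5-prime to 3-prime actin signal, a sign of RNA quality, was 0.482, 0.448 and 0.432 against 0.501 to 0.525, with replicate 3 lowest. The part of these in the values of the members was not tested.

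In the wild type, 1 array stood out at 5 months. Replicate 1, the male, gave the highest signal of its group for 10 of 10 members, among them Arc at 381 against 73.2 and 108, Fos at 557 against 169 and 169, and Nr4a1 at 498 against 217 and 243. The share of all genes highest on this array is not given here, so the count of 10 has no baseline. Averaged over the members this array lay at 0.30 on the centred log2 scale, where the other 8 wild-type arrays lay between -0.66 and -0.26 and the 3- and 5-month knockouts between 0.36 and 0.77. Its glucocorticoid sum, 14900, lay between the 14600 and 17600 of the other arrays of its group. Without it the Fos change at 5 months was 2.20 (adjusted p 1.43e-05) and that of Arc 1.86 (adjusted p 0.0645). Sex was only an additive term in the fit, with 1 male in this group, and no contrast between the sexes was made.

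At 3 months the knockout arrays were even, with centred means of 0.50 to 0.70 against -0.38 to -0.26 in the wild type. Microglial markers there summed to 7040 to 7490 in the knockout and 4060 to 4330 in the wild type, and 10 of 17 passed as higher. Excitatory neuron markers summed to 8540 to 9010 against 10000 to 11300, with 1 of 15 passing as lower. The glucocorticoid list went the other way from its 8-month course, at 12200 to 14100 against 17200 to 18900, with Sgk1 (-1.18 ± 0.22) and Tsc22d3 (-0.97 ± 0.20) passing as lower. Of 11 endothelial markers 9 were above 0 at 3 months (median 0.22), with 1 passing as higher and 1 as lower, Slc2a1, the glucose transporter (-0.58 ± 0.14). At 5 months microglial markers summed to 9300 to 9930 against 4310 to 5290 (12 of 17 higher) and astrocyte markers to 34700 to 35300 against 26200 to 27200 (6 of 12 higher). Of all genes 0.912% passed as higher and 0.336% as lower at 3 months, and 2.31% and 0.656% at 5 months. The part of these cell types and of stress signals in the members' values was not tested.

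In the wild type no member passed between ages. This held between 3 and 5, 5 and 8 or 3 and 8 months (limma), where 0% of genes did in the first 2 contrasts and 0.008% (higher) and 0.016% (lower) in the last. At an unadjusted p under 0.05 there were 0, 1 (Fosb, lower) and 2 (Btg2 higher, Egr2 lower), where 2.05%, 3.81% and 4.12% of genes were higher and 1.58%, 4.06% and 3.49% lower. In the knockout, 3 members were lower at 8 than at 3 months: Nr4a1 (-1.33 ± 0.30, adjusted p 0.0117), Npas4 (-1.31 ± 0.30, adjusted p 0.0152) and Btg2 (-0.72 ± 0.20, adjusted p 0.0362), where 2.12% of genes passed as lower and 3.67% as higher. The second Btg2 probe set gave -0.32 ± 0.20 for this difference and did not pass (limma, adjusted p 0.379). A count without replicates 1 and 2 of 8 months is not given, since it leaves 1 array in that group. Leaving out single knockout arrays gave 0 without replicate 2 of 8 months (0.296% of genes lower) or 3 of 3 months (0.8%), 1 without replicate 2 of 3 months (0.808%) and 6 without replicate 3 of 8 months (8.16%). Between 3 and 5 months no member passed in the knockout in limma (0.24% of genes were higher and 0.032% lower), and between 5 and 8 months none did (0% of genes). At an unadjusted p under 0.05, 1 member was higher and 1 lower in the first contrast (7.11% and 4.01% of genes) and 6 were lower in the second (8.76% of genes, with 6.47% higher). Egr1 was higher at 5 than at 3 months by 0.57 ± 0.26, which did not pass (adjusted p 0.388), although its ranges did not overlap, 1500 to 1630 against 2240 to 2400.

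The difference of the knockout effect between ages was tested directly. From 3 to 5 months no member passed in limma, as was so for all genes (0%), and 1 member had an unadjusted p under 0.05 (Btg2, -1.06 ± 0.27), where 2.37% of genes were lower and 3.55% higher. From 5 to 8 months no member passed either (0% of genes), and 4 had an unadjusted p under 0.05, all lower: Arc (-1.45 ± 0.67), Egr1 (-1.02 ± 0.38), Npas4 (-1.15 ± 0.43) and Nr4a1 (-1.25 ± 0.41). At that threshold 6.67% of genes were lower and 5.36% higher. Those 4 passed when 8-month knockout replicate 3 was left out (adjusted p 0.000665 to 0.00386), where 2.37% of genes passed as lower and 2.16% as higher. That array was singled out after these values were seen, so this lends no support.

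Other rapidly induced genes gave a wider view of the response. Of 37 tested, 12 passed as higher over ages and 1 as lower, where 8.39% and 6.43% of all genes did. The median log2 change of the 37 was 0.23 against -0.01 for all genes. Ier3 (0.63 ± 0.08, adjusted p 1.25e-05), an early response gene that protects from apoptosis, and Ier2 (0.59 ± 0.09) rose, as did Zfp36l1 (0.46 ± 0.06), which drives decay of short-lived mRNAs, Gadd45b (0.63 ± 0.10) and Klf4 (0.61 ± 0.12). Homer1, a scaffold of the synapse, fell by 0.22 (SE 0.05, adjusted p 0.0085). At 3 months Ier2 (0.81 ± 0.16) and Ier3 (0.82 ± 0.14) passed as higher, where 0.912% of all genes did, and at 5 months none did, where 2.31% did (limma). Without 8-month knockout replicate 3 these counts were 4 and 6, where 1.5% and 3.35% of all genes passed as higher.

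At 8 months 11 of the 37 passed as higher, where 6.97% of all genes did. Zfp36l1 (0.72 ± 0.11), Gadd45g (1.21 ± 0.23), Gadd45b (0.89 ± 0.18), Zfp36 (1.74 ± 0.38), Jun (0.52 ± 0.12) and Jund (0.50 ± 0.12) were those with the smallest p. Jun and Jund are subunits of AP-1, Zfp36 is another mRNA decay factor and the Gadd45 genes answer to stress. Without replicate 3 of that age 12 passed as higher and 3 as lower, where 10.3% and 11.2% of all genes did. That array was singled out after the values of the members were seen. A count without replicates 1 and 2 is not given, since it leaves 1 array in the group. At 3 months Nr4a2 and Nr4a3, relatives of Nr4a1, differed by -0.01 ± 0.21 and 0.03 ± 0.27, and Egr3 by -0.02 ± 0.20, and none passed.

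Genes upstream and downstream of the response were read from lists of their own. Over ages 6.43% of all genes passed as lower and 8.39% as higher. Of 24 tested genes that carry signals from the synapse to the nucleus, 6 passed as lower over ages and 1 as higher (median -0.08). They included Mef2c, an activity-dependent factor (-0.28 ± 0.05), Camkk2 (-0.34 ± 0.08) and Camk4 (-0.23 ± 0.05), kinases of the calcium path to CREB, and as higher Elk4, a partner of SRF (0.28 ± 0.07). Excitatory neuron markers were lower in the same arrays, with 9 of 15 passing and a median of -0.23, and the part of this in the kinase values was not tested. Of 15 tested late effectors of activity 4 passed as lower over ages and none as higher, against the same 6.43% and 8.39% of all genes. Penk, the enkephalin precursor (-0.17 ± 0.04), Rgs4 (-0.20 ± 0.05) and Nrn1 (-0.20 ± 0.06) were among those lower. At 8 months Nptx2, a synaptic pentraxin (1.34 ± 0.33), Vgf, a peptide precursor (0.49 ± 0.11), and Bdnf, a neurotrophin (0.74 ± 0.23), passed as higher, and Rgs4, a regulator of G-protein signalling, as lower (-0.40 ± 0.10). Of all genes 6.97% passed as higher and 5.95% as lower at that age. Without knockout replicate 3 of that age the same 3 passed as higher and 1 as lower, where 10.3% and 11.2% of genes did. That array was singled out after the values of the members were seen, so this lends no support.

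The genes outside the members whose level followed the mean of the members most closely were ranked by Pearson's correlation over the 18 arrays, as a description, since both genotypes and all ages enter and the 5 were picked as the highest of all genes tested. They were Zkscan3 (r = 0.843, Spearman's rho 0.719), Eps8 (0.835, 0.88), Irf9 (0.81, 0.657), Ifit3 (0.806, 0.662) and Rtp4 (0.804, 0.659). Zkscan3 encodes a zinc finger protein and Eps8 an actin-capping protein, and Irf9, Ifit3 and Rtp4 are interferon-response genes. Ifit3 read 223 and 235 on 8-month knockout replicates 1 and 2 and 475 on replicate 3, against 147 to 207 in the 8-month wild type. Unlike Arc, it stayed above the wild type on both of the first arrays. Wild-type 5-month replicate 1, high in the members, read 156 for Ifit3, between the 141 and 167 of its group.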

How the data were processed

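The 18 arrays were grouped by the genotype and age in their labels. Replicate numbers follow accession order and pair nothing. The deposited intensity of a probe set is linear, and the authors' summary software is not given here. Trimming 2% of probe sets from each end gave a mean of 150 on all arrays, so the authors had scaled them, and no further scaling was applied (array medians spanned 0.094 on the log2 scale).

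Values were analysed as log2(signal + 16), so folds of dim genes are too small. Probe sets in the lowest 40% by mean and 64 controls were removed, leaving 27022 probe sets and 12496 genes. Genes were named from the platform annotation where it gave 1 symbol. limma 3.58.1 in R 4.3.3 was fitted to all 18 arrays with 6 groups and an additive sex term (lmFit, eBayes with a variance trend). Tests were two-sided, with Benjamini-Hochberg adjustment over all tested probe sets and a threshold of 0.05. The procedure was tested on simulated data.

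Alternatives changed the scaling, pseudocount, filter, sex term, variance model, weights and arrays used. Every member is named. Of the other rapidly induced genes up to 6 that passed are named per comparison, and of other lists up to 3, by smallest p, and the 5 genes with the highest correlation to the members' mean profile; Homer1 and the other list genes outside this rule were picked after their values were seen. The members and lists were chosen with earlier results of these data known. Having 3 arrays a group limits the precision.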

Additional observations from a re-analysis of the deposited data

Results flagged for a closer look

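The knockout effect on Btg2 differed between ages: at 8 months it was lower than at 3 months by a tested difference of -1.21 ± 0.28 on the log2 scale (limma, adjusted p 0.0358). The effect was 1.31 at 3 months and 0.10 at 8 months. The other Btg2 probe set gave -0.48 ± 0.28 for the same difference (adjusted p 0.451).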

How the results depend on the processing

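Counts of members that passed are given here as higher and lower together. The share of all genes that passed also moved with the setting, so a changed count cannot be read as a result about the members alone. At 8 months, for example, 6.97% of genes passed as higher and 5.95% as lower in the main fit. Without knockout replicate 3 of that age these shares were 10.3% and 11.2%. No paired analysis was possible because the labels number the samples 1 to 18 and pair none of them. Over all ages the main count of 6 lay between 4 and 7 with each array left out. At 3 months the main count of 3 became 6 with array weights and 6 with only the groups compared. It lay between 2 and 5 with single arrays left out. At 5 months the main count of 3 became 1 without the sex term, 1 without a variance trend and 7 with array weights. It lay between 1 and 7 with single arrays left out. At 8 months the main count of 1 became 0 without a trend, 0 with the robust variance model and 2 with array weights. Over single arrays it ranged from 0 to 5. The 5, without replicate 3 of the 8-month knockout, were 1 higher and 4 lower and so reversed the direction.

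For the knockout effect at 5 minus at 3 months the main count of 0 became 1 with only the groups compared (range 0 to 1 with single arrays left out). At 8 minus at 5 months it became 2 with array weights (range 0 to 4). At 8 minus at 3 months the main count of 1 became 0 without a filter, 0 without a trend, 0 with only the groups compared and 4 with array weights (range 0 to 5). Within the knockout, 5 minus 3 months went from 0 to 1 with a pseudocount of 64, 1 with array weights and 2 with only the groups compared (range 0 to 1). There 8 minus 5 months went from 0 to 5 with array weights (range 0 to 6). The knockout at 8 minus 3 months went from 3 to 1 without a trend, 7 with array weights and 0 with only the groups compared (range 0 to 6). The wild-type age counts stayed at 0 in every setting run. The cause was not tested. Array weights and leaving out arrays change how much the uneven 8-month knockout adds to the shared spread.

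Of the single changes that passed, those of Fos, Dusp1, Junb and Btg2 (brightest probe set) over all ages passed in every setting run. Nr4a1 and Arc over all ages did not without a trend or with the robust variance model, and Fos at 3 and at 8 months did not in the same 2 settings. Junb at 5 months did not pass without the sex term, without a trend or with only the groups compared (limma, largest adjusted p 0.0856). The losses of Dusp1 at 5 months are given above. Quantile normalization and median centring moved the median of all genes by 0 to -0.03 and left 10, 10 and 6 members above 0 at 3, 5 and 8 months.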
